A study of Homo sapiens with 6 samples.

Results

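Interferon-stimulated genes were followed in BaF3-T315I cells exposed to I13. The set was chosen by name, with earlier results of these data known. It holds 44 mouse genes for interferon receptors, the factors they activate, sensors of foreign nucleic acid and antiviral effectors. Of these, 42 were among the 22413 genes listed with expression values, and Ifih1 and Cmpk2 are not analysed here. A mean of at least 0.5 FPKM over all samples, required for the test, was met by 32 of the 42. FPKM are the fragments on a gene per kilobase of its length and relative to the fragments mapped in the library.

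BaF3-T315I is a murine hematopoietic line that carries BCR-ABL, the fusion kinase of chronic myeloid leukemia, with the T315I mutation. I13 is a small molecule inhibitor of histone deacetylases, enzymes that remove acetyl groups from histones. The mRNA of 6 samples of this 1 line was sequenced, 3 labelled control and 3 treated with 1.1 µM of I13, and both groups carry the mutated fusion kinase. The labels give neither an exposure time nor what the controls received, and they do not say whether the samples came from separate cultures, so the p-values measure only the spread between these samples, which may be technical. The labels name the organism as human, whereas every value belongs to a mouse gene.

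Interferons are secreted proteins that warn cells of viruses. Type I interferons bind the receptor of Ifnar1 and Ifnar2, and interferon gamma binds the receptor of Ifngr1 and Ifngr2. Type I receptors activate Stat2, which acts with Irf9 to switch on a large group of antiviral genes that cells keep at a low level otherwise.

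Library totals lay between 16762119 and 17722950 fragments, so depth differed little between samples. Of the IL-3 receptor and leukocyte markers, 6 of 6 reached a mean of 1 FPKM, with a summed level of 472 to 916 FPKM in the controls and 946 to 1692 FPKM after I13. Cd79a and Cd79b, of the B cell receptor, were the 2 of 6 listed B lineage markers above 1 FPKM, and Ebf1 and Pax5, which define the lineage, were at or near 0. Their list summed to 17.7 to 32.9 FPKM in the controls and 27.2 to 34.3 FPKM after I13. T cell markers and plasmacytoid dendritic cell markers, the latter of a cell type that secretes interferon, summed to at most 0.394 and 0.189 FPKM. Among the fibroblast and endothelial markers only Pecam1 was above 1 FPKM, between 35.5 and 45.9 FPKM.

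After exposure to I13, Mx1, Bst2, Gbp7, Sp100, Isg20, Parp14 and Parp9 were each at a higher level in every treated sample than in any control, as were Ifnar2 and Ifi35 by smaller margins. The other receptors, Stat2, Irf9, Irf1 and Irf7 showed no such separation. Of all genes tested, 9.82% were higher with no overlap between the groups and 15.4% lower. None of the 32 genes was called by limma without a replicate block, where a call needed an adjusted p (Benjamini-Hochberg, all genes tested) below 0.05 and a log2 fold change of 0.58 or more in either direction. This rule called 0.0411% of the 12163 genes tested, and the adjusted p of the 32 genes ran from 0.111 to 0.968. Fold changes are on the log2(FPKM + 0.1) scale, which understates the change of low genes. In a bulk sample, a change in the number of cells that express a gene and a change in RNA per cell cannot be told apart.

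Same-numbered control and I13 samples deviated together, so results with a term for the replicate number, a block, are given wherever it changed a call. The labels do not call the samples paired, and the use of the block rests on these same values. With this block 2 of the 32 genes were called, Mx1 and Bst2, both higher after I13. The blocked fit called 1.36% of all genes tested as higher and 0.526% as lower. Voom on the fragments recovered from the FPKM, with the block, called 5 members as higher, Mx1, Bst2, Gbp7, Sp100 and Irf7, and 3.08% of all genes tested as higher and 1.05% as lower.

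**Figure D1:**
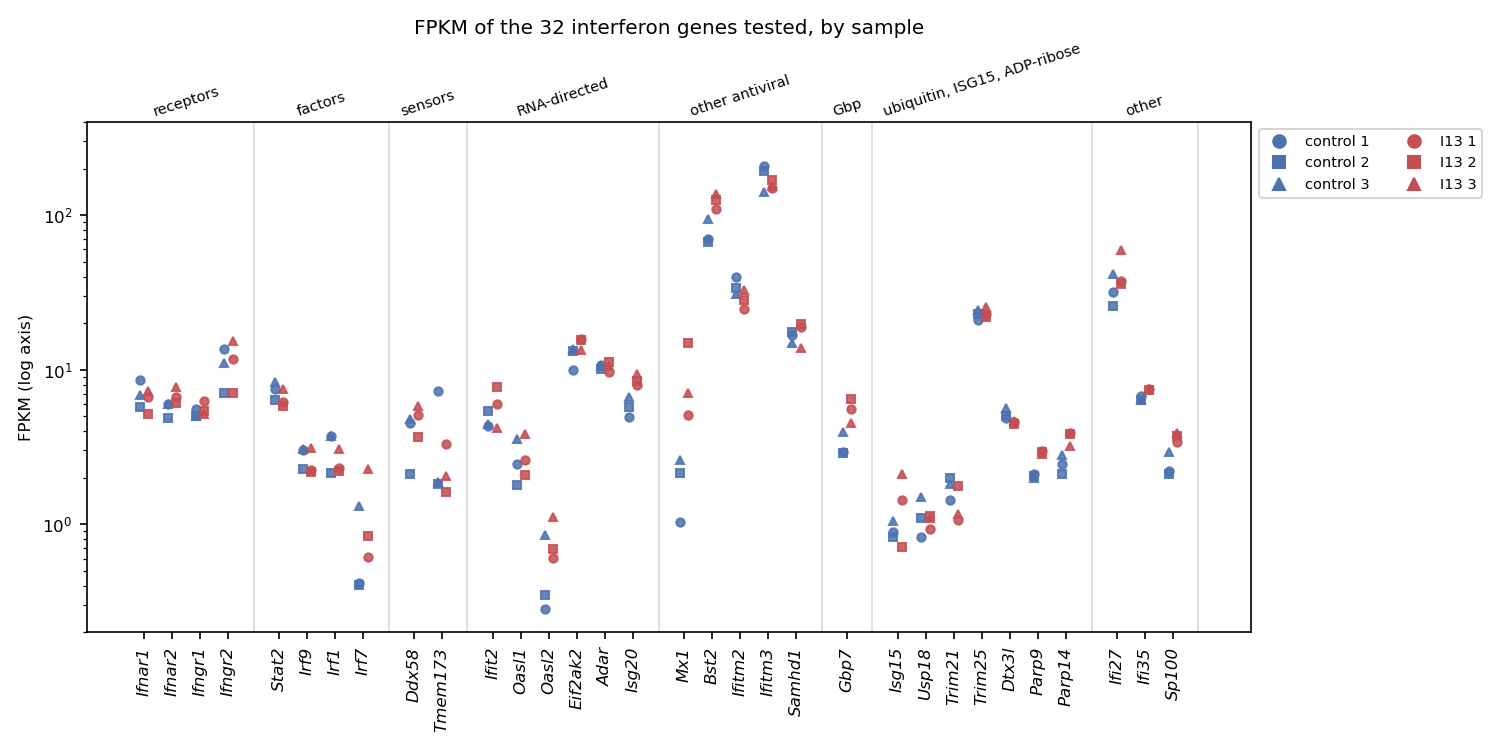
FPKM (log axis) of each of the 32 genes tested, in the 3 control samples (blue) and the 3 I13 samples (red), with 1 symbol per replicate number and the genes grouped by role. Mx1 and Bst2 stand higher in all I13 samples, whereas the points of most receptors and factors interleave.

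Mx1 had the largest fold change of the set. Mx1 is a dynamin-like GTPase that blocks the replication of influenza and related viruses. Its level was 1.04, 2.15 and 2.61 FPKM in control replicates 1, 2 and 3, and 5.12, 14.9 and 7.07 FPKM in I13 replicates 1, 2 and 3. Every treated sample lay above every control, and I13 replicate 2 was well above the other treated samples. The log2 fold change of Mx1 was 2.11 (standard error 0.45, 95% confidence interval 1.05 to 3.17, limma adjusted p = 0.111). With the replicate block its adjusted p was 0.0384, and Mx1 rose in each of the 3 pairs, by 2.20, 2.74 and 1.40 on the log2 scale. Without I13 replicate 2 the log2 fold change was 1.68. With any 1 pair left out of the blocked fit, the adjusted p of Mx1 was at least 0.0667.

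Bst2, tetherin, holds budding virus particles at the cell surface. Its level was 70.2, 67.5 and 94.5 FPKM in the controls and 109, 124 and 137 FPKM after I13, in the order of the replicate numbers. All treated samples were above all controls, although control replicate 3 came near I13 replicate 1. The log2 fold change of Bst2 was 0.68 (standard error 0.15, limma adjusted p = 0.114, and 0.0384 with the replicate block). Its fold change stayed at or above 0.59 without any 1 sample. With any 1 pair left out of the blocked fit, its adjusted p was at least 0.0642. The values of Bst2 rest on 3701 fragments in the controls and 5786 after I13.

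The other antiviral genes of this group were not past either threshold in either fit. Ifitm2 and Ifitm3 encode membrane proteins that hinder the fusion of incoming viruses. Ifitm3 had the highest level of the set, with 208, 193 and 142 FPKM in the controls and 149, 169 and 155 FPKM after I13. Ifitm2 was at 40.0, 33.5 and 30.8 FPKM in the controls and 24.8, 28.2 and 32.5 FPKM after I13. The treated values of Ifitm3 lay inside the range of its controls, and the groups of Ifitm2 overlapped through I13 replicate 3. Their log2 fold changes were -0.18 (95% interval -0.53 to 0.17) for Ifitm3 and -0.28 (-0.61 to 0.04) for Ifitm2. Samhd1, which breaks down the nucleotides that retroviruses need, was at 16.6, 17.5 and 14.8 FPKM in the controls and 18.8, 19.8 and 13.8 FPKM after I13. The groups of Samhd1 overlapped, with a log2 fold change of 0.08 (95% interval -0.28 to 0.44).

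Gbp7 was the only guanylate-binding protein gene that reached the level for the test. Guanylate-binding proteins are GTPases that attack the vacuoles of intracellular pathogens. Gbp7 was at 2.94, 2.87 and 3.94 FPKM in the controls and at 5.57, 6.45 and 4.55 FPKM after I13. The groups were apart, with control replicate 3 and I13 replicate 3 nearest to each other. Gbp7 had a log2 fold change of 0.75 (standard error 0.18, limma adjusted p = 0.120, and 0.0875 with the block). Gbp2 and Gbp3 were listed below 1 FPKM, and their fragments per sample could be read back from the FPKM. Gbp2 had 6, 13 and 8 fragments in the controls and 24, 16 and 30 after I13. Gbp3 had 13, 9 and 12 fragments in the controls and 39, 22 and 24 after I13. Both were higher in all treated samples, and at this depth a sample's value carries a large counting error. How the authors treated fragments shared by closely similar copies, as in the Gbp, Ifitm, Oasl and Ifit families, is not given in the sources used here.

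**Figure D2:**
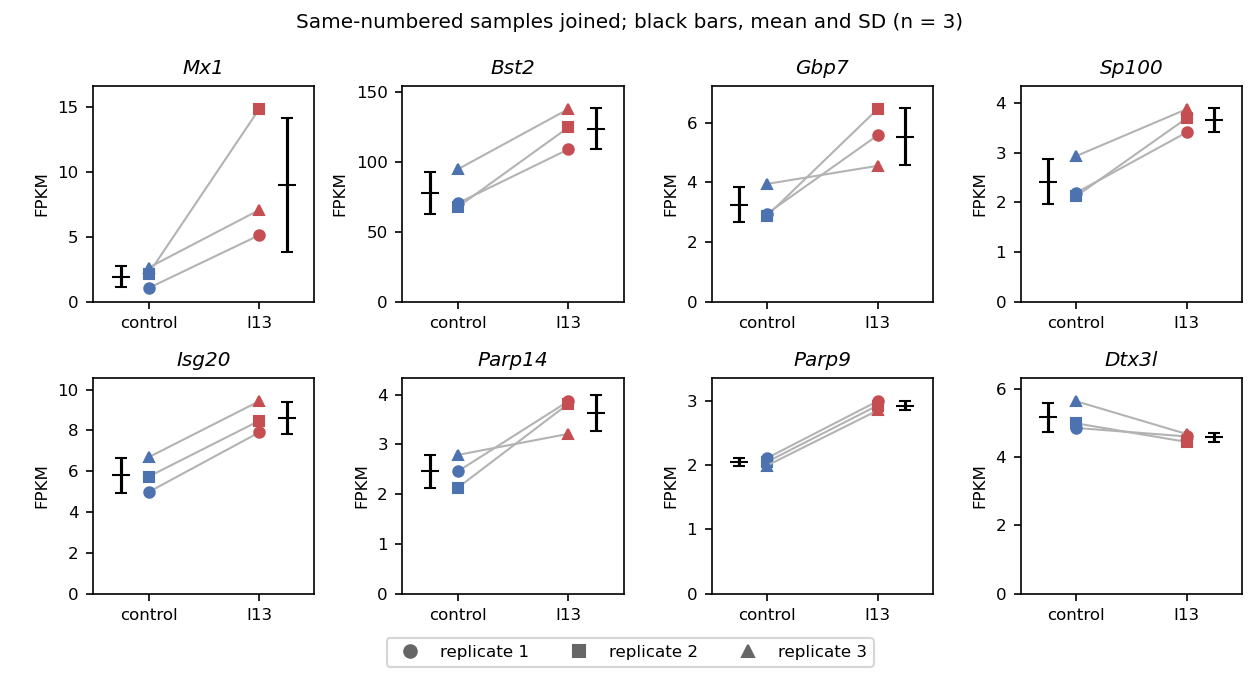
FPKM of 7 of the 9 tested genes that were higher in every I13 sample than in any control, and of Dtx3l. Ifnar2 and Ifi35, with smaller margins, are not drawn. Same-numbered control (blue) and I13 (red) samples are joined by a line, with the mean and its SD (n = 3) as a black bar. The treated samples of Mx1 spread from 5.12 to 14.9 FPKM, those of Parp9 lie close together, and Dtx3l is lower in all I13 samples.

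Isg20 and Sp100 were higher after I13 at moderate levels. Isg20 is an exonuclease that degrades single-stranded RNA. It was at 4.98, 5.73 and 6.68 FPKM in the controls and 7.90, 8.47 and 9.43 FPKM after I13, so the groups did not overlap and replicate 3 was highest in both. Isg20 had a log2 fold change of 0.57 (standard error 0.14, limma adjusted p = 0.120). With the replicate block its adjusted p was 0.0451, but the fold change lay just under the threshold of 0.58, so it was not called. Sp100 is a component of PML nuclear bodies. Its level was 2.20, 2.12 and 2.94 FPKM in the controls and 3.42, 3.70 and 3.89 FPKM after I13. The groups were apart, with a log2 fold change of 0.59 (standard error 0.16, limma adjusted p = 0.137, and 0.0686 with the block).

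Parp9, Parp14 and Dtx3l are proteins of ADP-ribose and ubiquitin transfer, of which Parp9 and Dtx3l form a complex, and their genes differed in the direction of the values. Parp9 was at 2.11, 2.05 and 1.99 FPKM in the controls and 2.99, 2.93 and 2.85 FPKM after I13. Its samples lay close together, and each pair differed by 0.49 or 0.50 on the log2 scale. Parp14 was at 2.46, 2.13 and 2.79 FPKM in the controls and 3.87, 3.81 and 3.21 FPKM after I13, again with no overlap. The log2 fold changes of Parp9 and Parp14 were 0.49 (standard error 0.12) and 0.55 (standard error 0.15), both under the threshold, with limma adjusted p of 0.126 and 0.142. Dtx3l was at 4.85, 4.98 and 5.63 FPKM in the controls and 4.60, 4.44 and 4.67 FPKM after I13. It was the only one of the 32 genes with every treated sample below every control, at a log2 fold change of -0.17 (95% interval -0.42 to 0.08). The difference in change between Dtx3l and Parp9 was not tested.

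The genes of the ISG15 system and the TRIM ubiquitin ligases had overlapping groups. Isg15 is a ubiquitin-like protein that is joined to other proteins after interferon. Its level was 0.896, 0.825 and 1.05 FPKM in the controls and 1.43, 0.710 and 2.12 FPKM after I13, so that the lowest and the highest of the 6 values were both treated samples. These values rest on 37 fragments in the controls and 56 after I13, and the log2 fold change was 0.46 (95% interval -0.43 to 1.34). Usp18 removes Isg15 from proteins and restrains the type I receptor. It was at 0.829, 1.10 and 1.51 FPKM in the controls and 0.936, 1.13 and 1.11 FPKM after I13, with no separation. Trim25 activates the RNA sensor Ddx58 and was at 21.1, 23.0 and 24.2 FPKM in the controls and 22.9, 22.0 and 25.5 FPKM after I13. Its log2 fold change of 0.04 had a 95% interval of -0.19 to 0.28. Trim21, an intracellular antibody receptor, was at 1.44, 1.99 and 1.83 FPKM in the controls and 1.07, 1.77 and 1.17 FPKM after I13. It was lower in each of the 3 pairs, but the groups overlapped at a log2 fold change of -0.39 (95% interval -0.96 to 0.18).

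The genes of the RNA-directed effectors were mixed. Eif2ak2, the kinase PKR, stops translation when it binds double-stranded RNA, and it was at 9.96, 13.3 and 13.6 FPKM in the controls and 15.7, 15.7 and 13.4 FPKM after I13. Adar edits adenosines in double-stranded RNA and was nearly level, with 10.7, 10.2 and 10.6 FPKM in the controls and 9.62, 11.2 and 10.5 FPKM after I13. The log2 fold change of Eif2ak2 was 0.29 (95% interval -0.05 to 0.63), and that of Adar was -0.01 (95% interval -0.24 to 0.22), positive after rescaling to TPM or by median ratios. Oasl1 and Oasl2 are relatives of the enzymes that make the RNase L activator. Oasl1 was at 2.44, 1.80 and 3.55 FPKM in the controls and 2.59, 2.08 and 3.85 FPKM after I13. Oasl2 was at 0.283, 0.347 and 0.855 FPKM in the controls and 0.605, 0.693 and 1.11 FPKM after I13. In both genes replicate 3 was highest in either group and each pair was higher after I13, yet the groups overlapped. Their log2 fold changes were 0.13 (95% interval -0.57 to 0.83) and 0.68 (95% interval -0.38 to 1.75). Oasl2 was the only tested member whose control mean was under 0.5 FPKM. Ifit2, which binds viral RNA, was at 4.34, 5.42 and 4.44 FPKM in the controls and 5.97, 7.69 and 4.19 FPKM after I13. Its lowest value was a treated sample, and its log2 fold change was 0.29 (95% interval -0.23 to 0.81).

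Interferon receptors were expressed in all samples. Ifnar1 was at 8.51, 5.75 and 6.88 FPKM in the controls and 6.66, 5.17 and 7.25 FPKM after I13. Ifnar2 was at 5.97, 4.87 and 5.97 FPKM in the controls and 6.65, 6.11 and 7.74 FPKM after I13. The groups of Ifnar2 were apart by a small margin and those of Ifnar1 overlapped, with log2 fold changes of 0.28 (95% interval -0.04 to 0.60) and -0.14 (95% interval -0.57 to 0.29). Ifngr1 was at 5.55, 5.04 and 4.98 FPKM in the controls and 6.30, 5.36 and 5.16 FPKM after I13. Ifngr2 was at 13.6, 7.02 and 11.0 FPKM in the controls and 11.7, 7.09 and 15.3 FPKM after I13. Replicate 2 was lowest in both groups for Ifngr2, whose spread was wide. The log2 fold changes of the gamma receptor genes were 0.11 (95% interval -0.17 to 0.38) for Ifngr1 and 0.09 (95% interval -0.68 to 0.86) for Ifngr2.

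Of the transcription factors, Stat2 and Irf9 form the complex that type I interferon activates. Stat2 was at 7.46, 6.38 and 8.37 FPKM in the controls and 6.15, 5.81 and 7.55 FPKM after I13, lower in each of the 3 pairs but with overlapping groups. Irf9 was at 3.02, 2.27 and 3.06 FPKM in the controls and 2.24, 2.19 and 3.13 FPKM after I13. Irf1, an early target of interferon gamma, was at 3.72, 2.14 and 3.71 FPKM in the controls and 2.33, 2.22 and 3.05 FPKM after I13. The log2 fold changes of these 3 genes were -0.19 (95% interval -0.53 to 0.16), -0.14 (-0.60 to 0.32) and -0.29 (-0.87 to 0.28). Irf7 drives the large-scale production of type I interferon and is itself interferon-induced. It was at 0.418, 0.406 and 1.31 FPKM in the controls and 0.616, 0.837 and 2.28 FPKM after I13. All 3 pairs were higher after I13, by 0.47, 0.89 and 0.76 on the log2 scale, while control replicate 3 lay above I13 replicates 1 and 2. The log2 fold change of Irf7 was 0.71 (standard error 0.58, limma adjusted p = 0.546, and 0.154 with the block), and it was 0.19 without I13 replicate 3.

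Sensors were represented by 2 tested genes. Ddx58, RIG-I, detects viral RNA in the cytoplasm and was at 4.50, 2.12 and 4.77 FPKM in the controls and 5.09, 3.65 and 5.83 FPKM after I13. Tmem173, STING, relays the detection of cytoplasmic DNA and was at 7.33, 1.82 and 1.87 FPKM in the controls and 3.30, 1.61 and 2.06 FPKM after I13. Replicate 1 was highest in both groups for Tmem173, and control replicate 1 was well above the other 5 samples. Its log2 fold change was -0.39 (95% interval -1.66 to 0.88), and 0.25 without control replicate 1. Ddx58 was higher in all pairs with a log2 fold change of 0.41 (95% interval -0.36 to 1.17), and 0.04 without control replicate 2. Among the remaining members, Ifi27 was at 31.9, 25.8 and 41.6 FPKM in the controls and 37.7, 35.9 and 59.4 FPKM after I13. Ifi35 was at 6.76, 6.37 and 6.34 FPKM in the controls and 7.52, 7.36 and 7.44 FPKM after I13. The groups overlapped for Ifi27, with a log2 fold change of 0.41 (95% interval -0.15 to 0.97), and were apart for Ifi35, with 0.19 (95% interval -0.02 to 0.41).

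**Figure D3:**
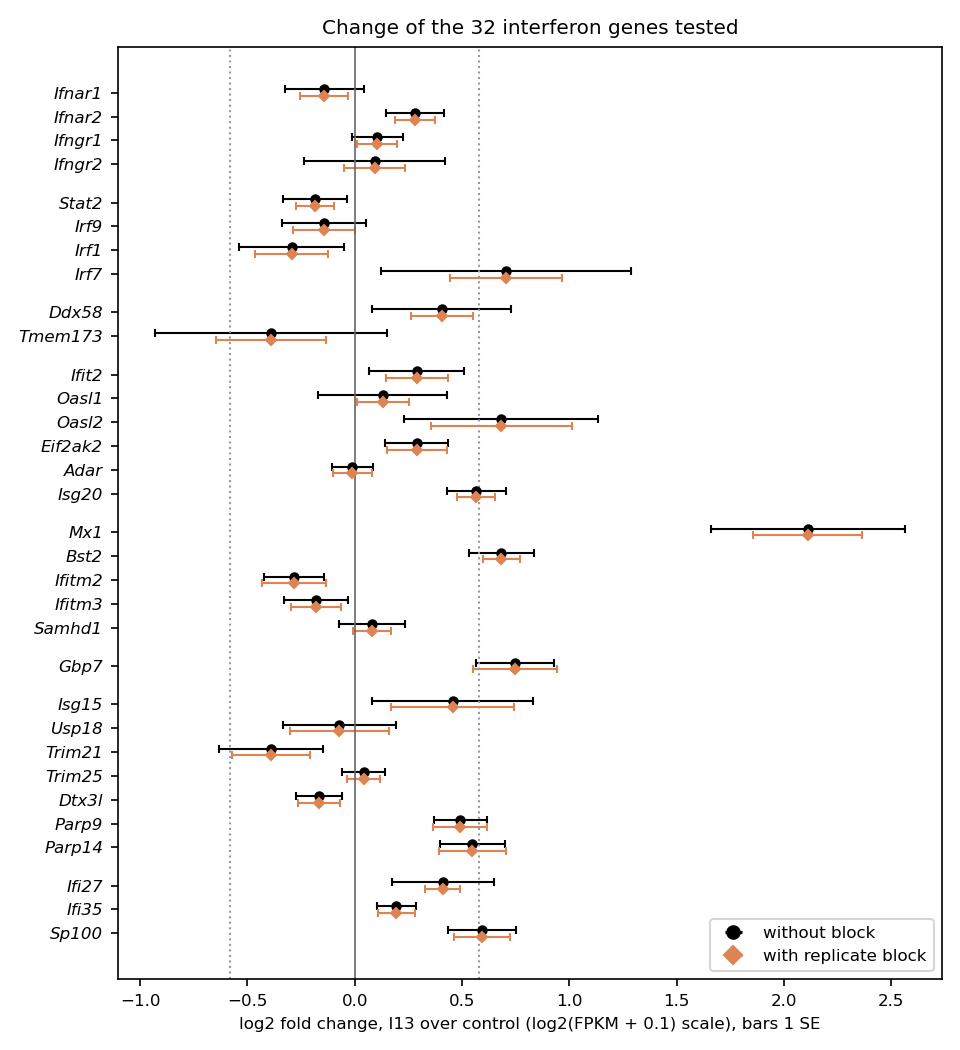
Log2 fold change of the 32 genes tested, I13 over control, without (black) and with (orange) the replicate block; bars are 1 standard error and dotted lines mark the threshold of 0.58. Mx1 lies at 2.11 and the other 31 genes between -0.39 and 0.75, with shorter bars under the block for Bst2, Ifi27 and Irf7.

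Across the 32 genes, 21 had a positive and 11 a negative log2 fold change, with a median of 0.16, beside -0.005 over all genes tested. Of all genes tested, 49.2% had a positive log2 fold change. At an unadjusted p below 0.05 in limma, 7 of the 32 (21.9%) were higher after I13 and 0 were lower, while 7.79% of all genes tested were higher and 10.8% lower. Groups that did not overlap were found for 9 higher members (28.1%) and 1 lower member (3.13%). Over all genes tested these shares were 9.82% and 15.4%. With the members below the level for the test included, 12 of the 42 listed were higher with no overlap and 1 was lower, and over all 22413 genes the shares were 8.01% and 9.53%. In 15 members all 3 pairs were higher after I13 and in 3 all were lower, whereas 24.1% and 27.5% of all genes tested were so. As the members were chosen with earlier results of these data known, these shares describe the set and do not test it.

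**Figure D4:**
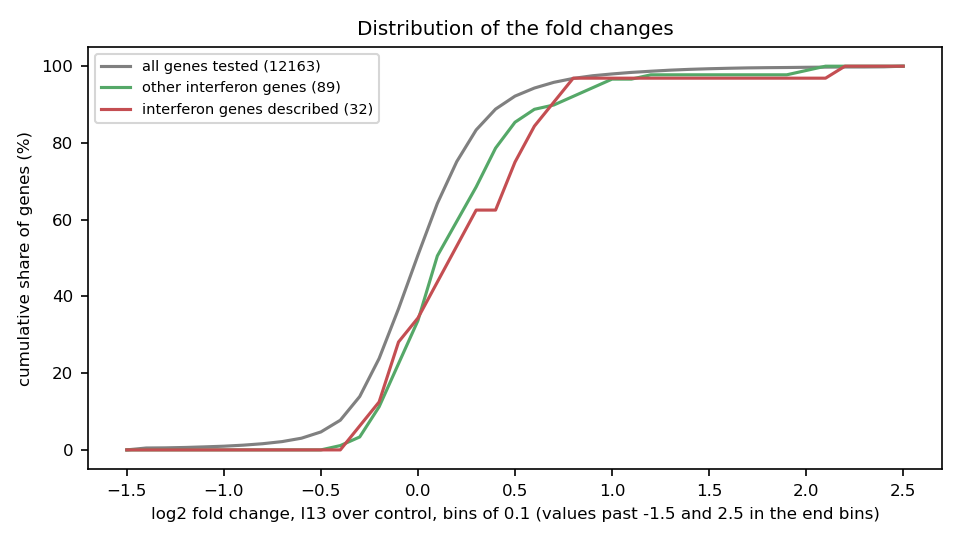
Cumulative share of genes (%) against log2 fold change (I13 over control, counted in bins of 0.1) for the 32 interferon genes, 89 other interferon genes and all 12163 genes tested. Between 0 and 0.6 the curve of the 32 genes runs to the right of that of all genes, with medians of 0.16 and -0.005.

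The summed level of the macrophage markers was also higher after I13, though none was called without the block. It was 23.0 to 46.4 FPKM in the controls and 53.0 to 87.2 FPKM after I13, with 3 of 5 listed markers above 1 FPKM. Most of it was Adgre1, with 37.6, 18.1 and 40.1 FPKM in the controls and 72.1, 44.1 and 76.7 FPKM after I13. Lyz2, with a log2 fold change of 0.76, was also higher in every treated sample than in any control. Cd68 had a log2 fold change of 0.47 with overlapping groups. Csf1r, which defines macrophages, and Mrc1 were at most 0.0702 and 0.0267 FPKM. Among the leukocyte markers, Il3ra, Spi1 and Runx1 had overlapping groups with log2 fold changes of 0.33, 0.29 and 0.04, and Ptprc was at 0.44 with the groups apart. Most of that list's summed level was Csf2rb and Csf2rb2. Csf2rb2, a subunit of the IL-3 receptor, was at 253, 196 and 408 FPKM in the controls and 449, 471 and 795 FPKM after I13. Csf2rb had similar values, with 286, 239 and 463 FPKM in the controls and 448, 477 and 838 FPKM after I13. With the block, limma called Adgre1 (adjusted p = 0.0308), Csf2rb2 (0.0312) and Csf2rb (0.0313) as higher after I13. That fit called 1.36% of all genes tested as higher. Whether the calls of Csf2rb and Csf2rb2 rest on shared fragments was not tested. The part of these markers in the levels of the interferon genes was not tested.

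The replicate number went along with the level of many members. The same replicate number held the highest value in both groups for 20 of the 32 genes (62.5%), and for 50.5% of all genes tested. Replicate 3 was that number for 13 of the 32 genes and replicate 2 for 3 of the 32. The 13 include Irf7, Isg15, Oasl1, Oasl2, Ddx58, Ifi27, Isg20 and Bst2. Over all genes tested replicate 3 was highest in both groups for 16.0%, and replicate 2 for 26.0%. Neither the labels nor the methods say what a shared number stands for.

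**Figure D5:**
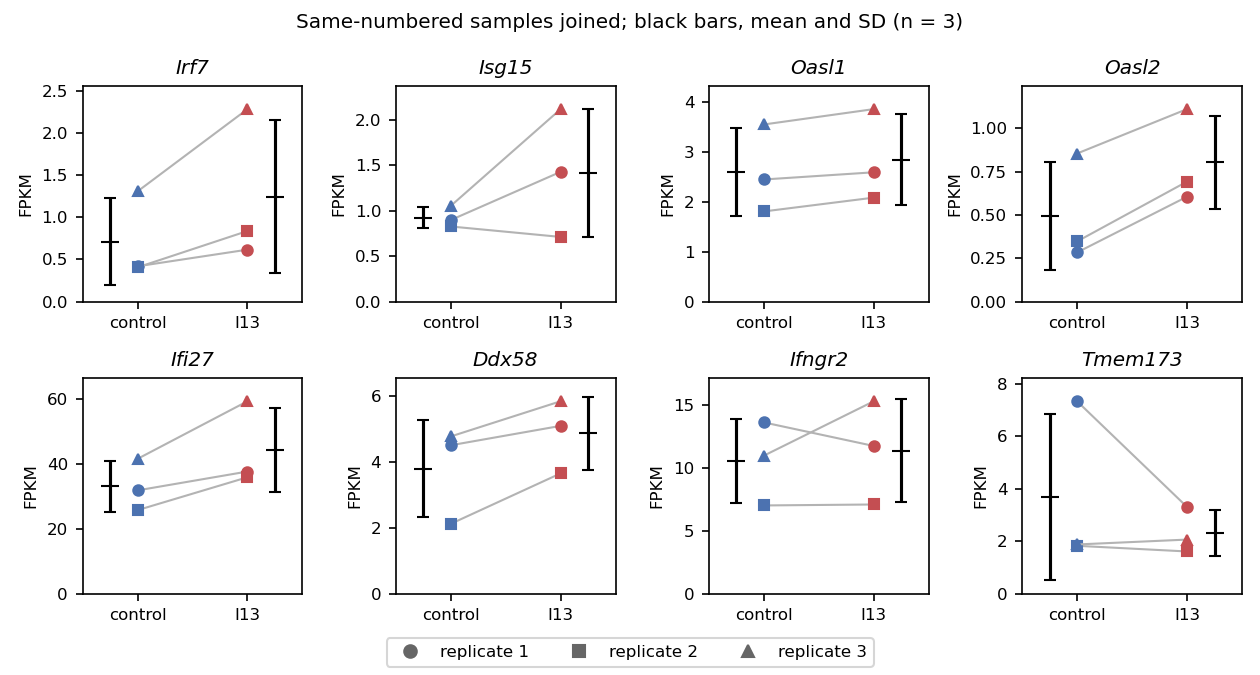
FPKM of 8 members chosen after their values were seen for a wide spread within groups, in control (blue) and I13 (red) samples, with same-numbered samples joined and the mean with its SD (n = 3) as a black bar. Replicate 3 is highest in both groups for Irf7, Isg15, Oasl1, Oasl2, Ifi27 and Ddx58, and replicate 1 for Tmem173.

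The 10 listed members below the level for the test had between 4 and 208 fragments in all 6 samples together. Rsad2, viperin, had 0 fragments in every control and 4, 1 and 0 after I13, and a count of 0 allows about 0.0396 FPKM. Rtp4 had 0 fragments in 5 samples and 4 in I13 replicate 3, where a count of 0 allows about 0.0805 FPKM. Such limits and counts cover counting error only. Zbp1, a sensor of Z-form nucleic acid, had 0, 2 and 7 fragments in the controls and 10, 9 and 21 after I13, with no overlap. Ifit1, which binds RNA that lacks a methylated cap, had 7, 4 and 9 fragments in the controls and 12, 6 and 15 after I13. Ifit3 had 0, 4 and 1 in the controls and 5, 3 and 3 after I13. Both Ifit genes overlapped between the groups, as did Mx2, with 3, 0 and 8 against 1, 3 and 14 fragments. Mx2 was listed as a polymorphic pseudogene, not as a protein-coding gene. Xaf1, an antagonist of an inhibitor of apoptosis, had 21, 25 and 53 fragments in the controls and 25, 35 and 49 after I13. Dhx58, the RIG-I-like protein LGP2, was the only one of the 10 with a lower mean after I13, with 27, 32 and 23 against 26, 18 and 8 fragments.

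Interferon transcripts themselves were scarce. Of 21 ligand genes looked for, 4 were listed and none reached the level for the test. Ifng, the only type II interferon, had 11 fragments in the controls and 33 after I13, at 0.0871, 0.0438 and 0.351 FPKM and at 0.570, 0.645 and 0.265 FPKM. Its groups overlapped through control replicate 3. Ifnab, Ifne and Ifnz each had at most 1 fragment in any sample.

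The wider pathway was read from lists of 157 further genes, of which 124 were listed and 89 tested. These lists too were chosen with earlier results of these data known, so their shares are description only. None of the 89 was called by limma without the block, and 15 (16.9%) were higher and 7 (7.87%) lower at an unadjusted p below 0.05, beside 7.79% and 10.8% of all genes tested. With the block, 3 of the 89 were called higher, Ifi27l2a, B2m and Ube2l6, beside 1.36% of all genes tested. No member of the ligand, signalling or sensing lists was called in either fit. Among the signalling genes, 9 of 11 tested had a positive log2 fold change, and 4 of 11 were higher at an unadjusted p below 0.05. Over all genes tested these shares were 49.2% and 7.79%. Jak1, a kinase of both receptors, was at 22.3, 21.2 and 24.0 FPKM in the controls and 31.1, 29.4 and 29.9 FPKM after I13. Jak1 had a log2 fold change of 0.42 (standard error 0.09, limma adjusted p = 0.109), under the threshold. Tyk2, the other kinase of the type I receptor, had a log2 fold change of -0.07 (95% interval -0.36 to 0.23). Ifnlr1, for the receptor of interferon lambda, and Irf8, of the other interferon-regulated genes, were listed at no more than 0.204 and 0.112 FPKM.

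Genes listed under the sensing and induction of interferon, which are not all inducers, had a median log2 fold change of -0.04. Of 16 tested, 1 (6.25%) was higher and 3 (18.8%) were lower at an unadjusted p below 0.05. Of all genes tested, 7.79% were higher and 10.8% lower. The most negative value of this list was that of Trim28. Trim28, a corepressor that silences retroelements, was at 115, 135 and 118 FPKM in the controls and 88.5, 96.4 and 89.6 FPKM after I13. Trim28 had a log2 fold change of -0.42 (limma adjusted p = 0.113, and 0.0440 with the block), under the threshold. Mavs, the mitochondrial adaptor of the RNA sensors, was at 15.4, 15.7 and 15.3 FPKM in the controls and 10.9, 12.9 and 14.5 FPKM after I13. All treated samples of Mavs lay below the controls, at a log2 fold change of -0.28 (standard error 0.12, limma adjusted p = 0.265). In this list 4 of 16 (25%) were lower with no overlap and 1 was higher, beside 15.4% and 9.82% of all genes tested. The kinase gene Tbk1 had a log2 fold change of -0.07 (95% interval -0.27 to 0.14) and its target Irf3 one of -0.17 (95% interval -0.42 to 0.09).

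Of the other interferon-regulated genes, 10 of 62 tested (16.1%) were higher and 4 (6.45%) lower at an unadjusted p below 0.05. Of all genes tested, 7.79% were higher and 10.8% lower. Ifi27l2a, a relative of Ifi27, was at 2.56, 2.94 and 3.92 FPKM in the controls and 8.95, 12.1 and 17.9 FPKM after I13. Ifi27l2a had a log2 fold change of 1.98 (standard error 0.27, limma adjusted p = 0.0860, and 0.0131 with the block). The chemokine gene Ccl5 was at 0.882, 0.354 and 0.768 FPKM in the controls and 3.25, 4.10 and 1.67 FPKM after I13. The groups of both genes were well apart, and the log2 fold change of Ccl5 was 2.00 (standard error 0.41, limma adjusted p = 0.109, and 0.0648 with the block). B2m, the light chain of MHC class I, was at 469, 414 and 759 FPKM in the controls and 758, 977 and 1444 FPKM after I13. The groups of B2m overlapped by control replicate 3, and its log2 fold change was 0.95 (standard error 0.29, limma adjusted p = 0.165, and 0.0361 with the block). Ube2l6, the conjugating enzyme for Isg15, had a log2 fold change of 0.75 (standard error 0.32, limma adjusted p = 0.272, and 0.0384 with the block). Slfn5 had a log2 fold change of 0.92 (standard error 0.35, limma adjusted p = 0.231). On the lower side, Tap2, Mov10 and Psmb10 had log2 fold changes of -0.33, -0.30 and -0.29, each with all treated samples below the controls. Groups without overlap were found for 5 of the 62 (8.06%) on the lower side and 11 (17.7%) on the higher. Over all genes tested 15.4% and 9.82% were so.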

How the data were processed

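Processing notes in the labels name Trimmomatic, HISAT2, Cufflinks, HTSeq and hg38, without versions; stranded mRNA libraries were made. The authors deposited FPKM for 22413 mouse genes in 6 samples, with 0 columns of per-sample values left without a sample. Mouse sequences and positions are not used here. Samples were grouped by their labels.

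Whole fragments and a whole gene length gave the values of all 22413 genes (100% of genes, largest gap 0.000123 fragments). For a gene seen in few samples the smallest fitting length was taken, and its fragments could be a multiple of those given. Depth limits precision for low genes.

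limma 3.58.1 in R 4.3.3 was fitted on log2(FPKM + 0.1), two-sided, with eBayes and its trend option. Genes needed a 6-sample mean of 0.5 FPKM or more, which left 12163. The script was tested on simulated data without pair effects, which does not show how the fits behave with paired samples. Thresholds were an adjusted p of 0.05 and an absolute log2 fold change of 0.58. The deviations from the group means of same-numbered samples correlated at 0.145, 0.301 and 0.219 across genes, and those of other pairs at -0.258 to 0.05. Each same-numbered value was above 0.1, so the numbers in the labels were taken to pair the samples. Deviations within a group cancel out for each gene, so the low values of other pairs follow in part from the same-numbered ones. They are no independent contrast, and the pairing was read from the same values to which the block was fitted.

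All members found are described, those tested with every value. Of the wider lists, Jak1, Tyk2, Irf3, Irf8, Mavs, Tbk1, Ifnlr1 and the ligands are named, with the 4 largest changes in each direction at an unadjusted p below 0.05 and a mean of at least 1 FPKM. One further gene named by this rule is not reported here. Ube2l6 was named after its value was seen. Members and lists were chosen with earlier results of these data known. Alternatives were other pseudocounts, filters and scalings, eBayes without a trend, the block, voom on the fragments, and leaving out samples. Figures were drawn with matplotlib 3.10.9.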

Additional observations from a re-analysis of the deposited data

How the results depend on the processing

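The median log2 fold change of the 32 genes stayed positive under every alternative and lay between 0.11 and 0.23 when samples were left out. The replicate block moved the calls: with it 230 genes were called against 5, with 2 members and 3 other interferon genes against 0, and 11 members had an unadjusted p below 0.05 against 7. With voom on the recovered fragments and the block these counts were 503, 5, 9 and 15. The block changed no other call of a member. Leaving out 1 sample, or 1 pair with the block, gave 0 to 83 genes called, 0 members, 0 to 2 other interferon genes, and 6 to 12 members at an unadjusted p below 0.05. These fits have fewer samples. All genes called were 8 without a trend and 8 with no filter, and 2 with median-ratio scaling and 2 with a pseudocount of 0.01. With no filter, 11 of the 42 listed members had an unadjusted p below 0.05. The share of all genes below this p was computed only for limma without the block, where it was 18.6% in either direction. The member counts at an unadjusted p under the alternatives therefore cannot be read as particular to the members. Adar had a log2 fold change of 0.0018 with median-ratio scaling and 0.0188 after rescaling to TPM. With 1 sample left out, the log2 fold change crossed 0 for Adar (-0.059 to 0.047), Ifnar1 (-0.28 to 0.00097), Ifngr2 (-0.17 to 0.40), Oasl1 (-0.10 to 0.37), Samhd1 (-0.017 to 0.24), Tmem173 (-0.72 to 0.25), Trim25 (-0.020 to 0.087) and Usp18 (-0.26 to 0.13). With 1 pair left out of the blocked fit it did so for Adar (-0.082 to 0.063), Ifngr2 (-0.098 to 0.25) and Usp18 (-0.19 to 0.099). The cause was not tested. Over the single genes, 18 values changed sign, 7 newly passed the threshold and 581 kept their direction and side.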
